A study of Mus musculus with 4 samples.

Results

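Transcripts of the general mRNA decay machinery were measured in newborn mouse epidermis with and without Skiv2l in keratinocytes. The set holds 52 genes, chosen by gene name from the 54752 gene identifiers in the tables: the RNA exosome, the 5′ exonucleases, the decapping complex with its LSM ring, nonsense-mediated decay (NMD) factors and the deadenylases. The rule itself uses names and no measured value, and all 52 names were found. All 52 were tested, because each had a value above 0.5 FPKM in at least 1 library. The unit, FPKM, is fragments scaled by transcript length and by the fragments of the library, which makes levels comparable between genes.

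Total RNA came from the epidermis of 4 C57BL/6 pups at postnatal day 0, 2 Skiv2l ctl and 2 Skiv2l fl/fl K14-Cre. Skiv2l fl/fl K14-Cre pups carry loxP-flanked Skiv2l alleles and a Cre recombinase expressed constitutively from the keratin 14 promoter, which is active in keratinocytes, so other cells of the epidermis keep the gene. Skiv2l ctl is a mixed group of littermates (homozygous fl/fl, or heterozygous fl/+ with or without K14-Cre), and the genotype of each control library is not stated, so floxed alleles and, possibly, Cre are present in controls too. No treatment is labelled. Libraries of the 2 groups are called control and knockout libraries below. The comparison asks how the other decay genes are expressed where the SKI complex has lost its helicase.

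In the cytoplasm, decay of an mRNA usually begins with shortening of the poly(A) tail by the CCR4-NOT and PAN2-PAN3 deadenylases. The body is then degraded from the 3′ end by the RNA exosome, into which the SKI complex threads the RNA, or from the 5′ end by XRN1 after the cap is removed by DCP2. NMD directs mRNAs with premature stop codons into these routes. In epidermis, exosome subunits are known for keeping basal progenitor cells from differentiating early.

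The targeted gene was lower as labelled. Skiv2l, the helicase of the SKI complex (chromosome 17, 34839228 to 34850210, GRCm38), was at 19.3 and 19.1 FPKM in the control libraries and at 10.8 and 8.55 in the knockout libraries. On the log2(FPKM + 1) scale it fell by 0.92 (standard error, SE, 0.12; limma adjusted p = 0.0037), and all log2 fold changes below are on that scale, knockout over control. Its exons overlap those of Dxo on the opposite strand, and whether counting used strand is not stated. The 2 partners of the helicase lay above both controls. Ttc37 was at 12.2 FPKM in both control libraries and at 15.2 and 13.95 in the knockout libraries (limma adjusted p = 0.093). Wdr61 was at 26.9 and 29.6 FPKM against 35.3 and 39.8 (limma adjusted p = 0.028). With libraries scaled to a common median FPKM, Ttc37 and Wdr61 were both called higher (limma adjusted p = 0.018 and 0.0088).

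The libraries had 5.84 to 6.27 aligned gigabases, taken as coverage divided by FPKM, and 16138 to 17761 genes above 0.5 FPKM, the lowest number being that of Skiv2l fl/fl K14-Cre replicate 2. Several cell markers moved with genotype, and their part in the results below was not tested. The summed level of 3 wound keratins was 513 and 628 FPKM in Skiv2l ctl and 18247 and 19358 FPKM in knockout libraries, with all 3 called higher. The 20 most abundant coding genes held 16.2% and 16.5% of the coding FPKM in Skiv2l ctl and 20.2% and 21.2% in Skiv2l fl/fl K14-Cre. Of all tested genes 8.99% were called higher and 25.4% lower. All 4 proliferation markers, 3 of 5 Langerhans cell markers, 2 of 6 fibroblast markers and 4 of 5 erythrocyte markers were called lower. Their summed FPKM ran from 108 to 111, 71.3 to 75.2, 61.3 to 69.0 and 125 to 134 in Skiv2l ctl, and from 74.5 to 76.9, 49.5 to 50.2, 21.9 to 25.04 and 62.0 to 80.7 in Skiv2l fl/fl K14-Cre, in that order. Most of the Langerhans cell sum was Epcam (50.8 and 51.2 FPKM against 44.2 and 43.6), which was not called (limma adjusted p = 0.077). Cd207 was at 0.040 and 0.042 FPKM in Skiv2l ctl and at 0 in knockout libraries, and it was not tested. The called Langerhans cell markers were Cd74, H2-Aa and H2-Ab1. Most of the fibroblast sum was Dcn (57.0 and 62.7 FPKM against 16.9 and 21.4). Col1a2 and Lum also lay below both controls, and Col1a1 and Col3a1 overlapped. Pdgfra lay above both controls (log2 fold change 0.44, limma adjusted p = 0.060, and 0.047 after median scaling). Melanocyte markers, with 1 of 5 called higher, summed to 47.5 and 54.4 FPKM against 50.6 and 63.5, macrophage markers, with 1 of 4 called lower, to 18.4 and 25.7 against 17.0 and 13.4, and T cell markers to 16.6 and 15.7 against 36.4 and 39.4. Of the 4 T cell markers 2 were tested and neither was called, and the higher sum came from Trbc2 (14.7 and 12.95 FPKM against 35.0 and 37.8, not tested), while Cd3e, Cd3g and Trdc lay below both controls. Endothelial and skeletal muscle markers summed to at most 0.7502 FPKM in any library, and of 4 neutrophil markers 2 were at 0 in every library. Basal keratinocyte markers, with 2 of 5 called higher, summed to 4153 and 4344 FPKM against 9598 and 9542, mostly through Krt14 (1736 and 1812 against 7381 and 7312), while Krt5 lay below both controls (2003 and 2075 against 1761 and 1759) and Col17a1 and Trp63 overlapped. Suprabasal markers, with 2 of 5 called lower, summed to 27007 and 28001 against 18635 and 21617, so the labelled tissue carried its defining markers. After libraries were scaled to a common median FPKM, Mki67 alone of the 4 proliferation markers was called lower (limma adjusted p = 0.022). With quantile normalization Mki67, Pcna and Top2a were called lower (limma adjusted p = 0.012, 0.014 and 0.025), and Ccnb1 was not (0.12). By Ki67 protein staining and cell-cycle analysis, the paper reports more proliferating basal keratinocytes in Skiv2l fl/fl K14-Cre epidermis. In whole epidermis fewer cells of a type and less RNA per cell cannot be told apart.

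The decay machinery was expressed in every library. On the scale of the deposited values most of its genes lay a little below the controls in knockout epidermis, as did most tested genes. Both knockout libraries were below both controls for 59.6% of the members and 55.3% of all tested genes. In Skiv2l ctl the median member was at 12.4 FPKM, against 7.81 FPKM over the 13609 protein-coding genes tested, and 31 of the 52 members were above 10 FPKM. The most abundant was Upf1, the NMD helicase, with a control mean of 51.0 FPKM, followed by the CCR4-NOT scaffold Cnot1 at 46.6 and the decapping activator Ddx6 at 44.7 FPKM. The control libraries were at 52.5 and 49.5 FPKM for Upf1, above those of the other two, and at 48.6 and 44.6 for Cnot1 and 41.5 and 47.8 for Ddx6, which overlapped.

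**Figure D1:**
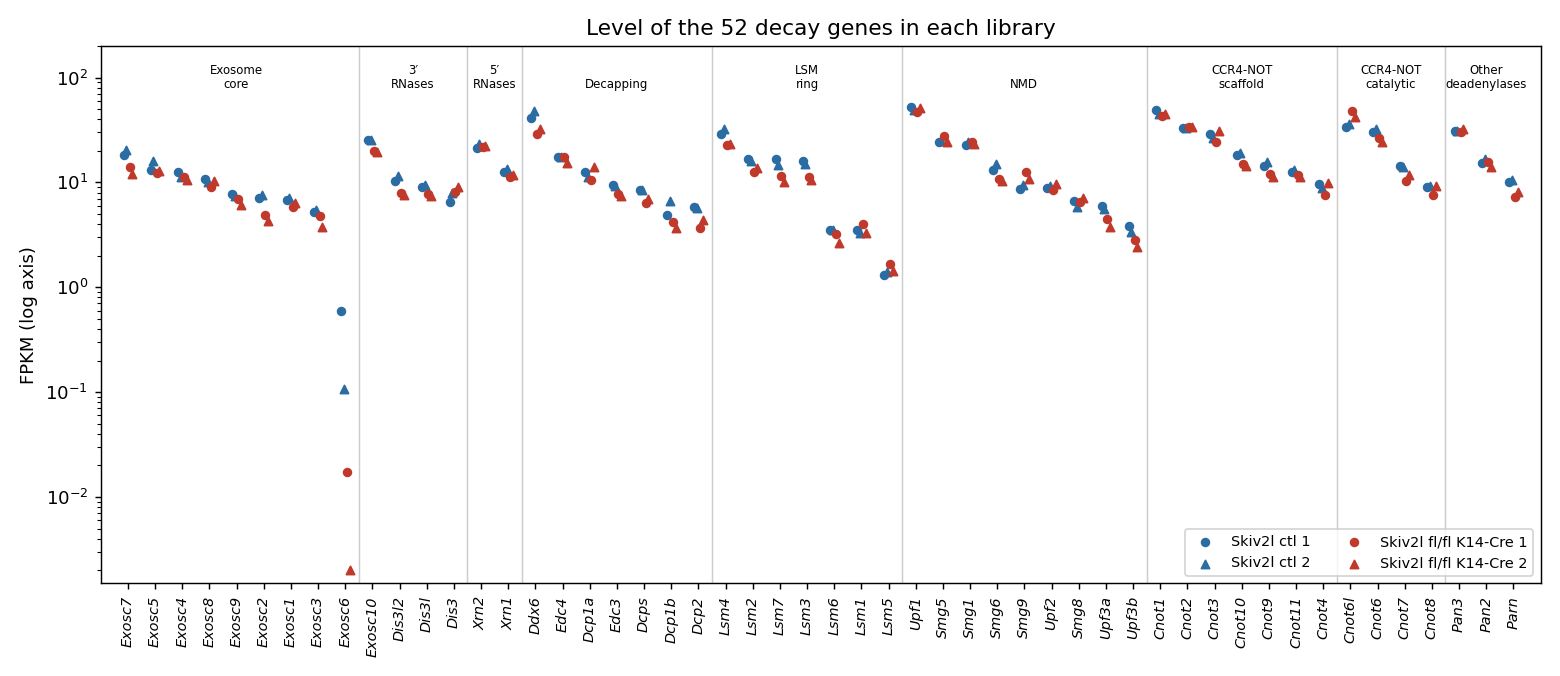
FPKM (log axis) of each of the 52 decay genes, grouped by role and ordered within a role by control mean, in Skiv2l ctl (blue) and Skiv2l fl/fl K14-Cre (red) libraries, with replicate 1 as circles and replicate 2 as triangles. Most genes lie between 3 and 53 FPKM with the red points close to or a little below the blue ones, and Exosc6 is the only one under 1 FPKM.

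In the limma fit across all 13609 genes, 1 member, Cnot6l, was called higher and 14 members were called lower in knockout epidermis at an adjusted p under 0.05. The background was 34.4% of all tested genes called in either direction, 8.99% called higher and 25.4% called lower, and the members' shares were 28.8%, 1.92% and 26.9%. The share of members called lower was thus near that of all genes. Both knockout libraries were below both controls for 31 members (59.6%, against 55.3% of all tested genes) and above both for 5 members (9.62%, against 18.2%). The 14 genes called lower were Exosc2, Exosc7, Exosc10, Dis3l2, Ddx6, Dcp2, Lsm3, Lsm4, Lsm7, Upf3a, Smg6, Cnot9, Cnot10 and Parn. Exons of 20 members overlap those of another gene, 17 of them on the opposite strand, and 4 of these 20 were called (Cnot9 with Usp37, Smg6 with Srr and Gm12333, Exosc2 and Lsm3 with genes of low level).

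The changes were small. On the log2(FPKM + 1) scale no member changed by 1 or more, as 6.81% of all tested genes did, and 3 members (Exosc2, Ddx6 and Exosc7) reached 0.5, as 26.4% of all tested genes did. The interquartile range of the log2 fold change was 0.33 over the members and 0.46 over all tested genes, and the 95% interval of each of the 52 members lay within 1 of 0 on the log2 scale. With a pseudocount of 0.1 in place of 1, 1 member passed 1 in size, Exosc6, at -1.79, and its values are doubtful for the reasons given with the exosome core. The standard errors ran from 0.079 to 0.21, with a median of 0.10.

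**Figure D2:**
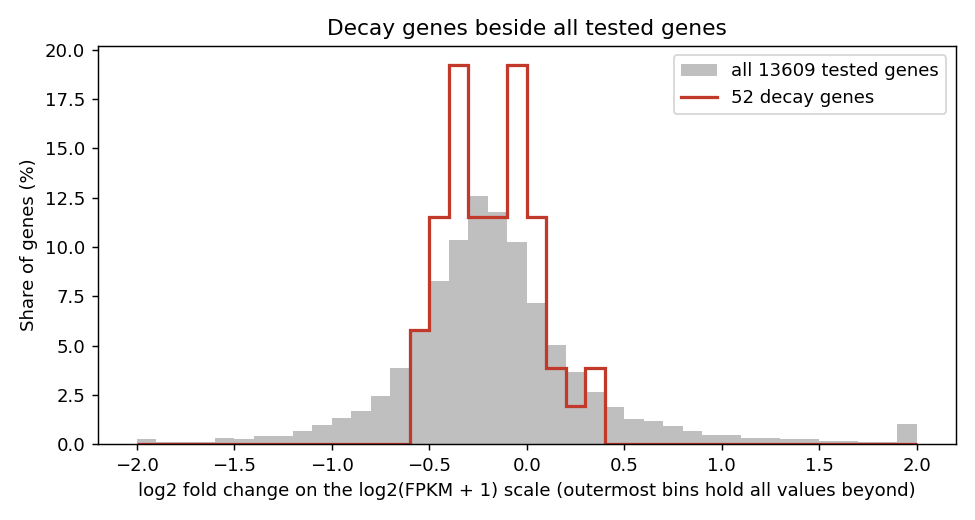
Share of genes (%) by log2 fold change, Skiv2l fl/fl K14-Cre over Skiv2l ctl, in bins of 0.1, for all 13609 tested genes (grey) and the 52 decay genes (red line). The members lie between -0.58 and 0.36 around a median of -0.18, beside a median of -0.20 over all genes, and leave the outer part of the grey distribution empty.

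How many members were called, and the balance of signs over all members, depended on how the libraries were scaled. Every member called on the deposited scale kept its sign with both scalings described here. The median log2 fold change was -0.18 over the members and -0.20 over all tested genes with FPKM as deposited, and it was 0.010 over the members and -0.028 over all genes when libraries were scaled to a common median FPKM (median scaling). On the deposited scale 41 members had a log2 fold change below 0 and 11 above, and after median scaling 25 were below 0 and 27 above. After this scaling limma called 2 members higher, Cnot6l and Smg9, and 1 lower, Exosc2, against a background of 25.8% of all tested genes called, 13.9% higher and 11.9% lower. With quantile normalization 2 members were called higher and 4 lower, beside 26.5% of all genes called, 12.4% higher and 14.1% lower. When 1 library is left out, the spread within a group comes from the remaining pair alone. Fewer of the called members then passed the test, and the share of all tested genes called in these fits was not counted. The median log2 fold change of the members was -0.20 without Skiv2l ctl replicate 1 and -0.19 without Skiv2l ctl replicate 2. Over all fits with 1 library left out it ran from -0.22 to -0.19.

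**Figure D3:**
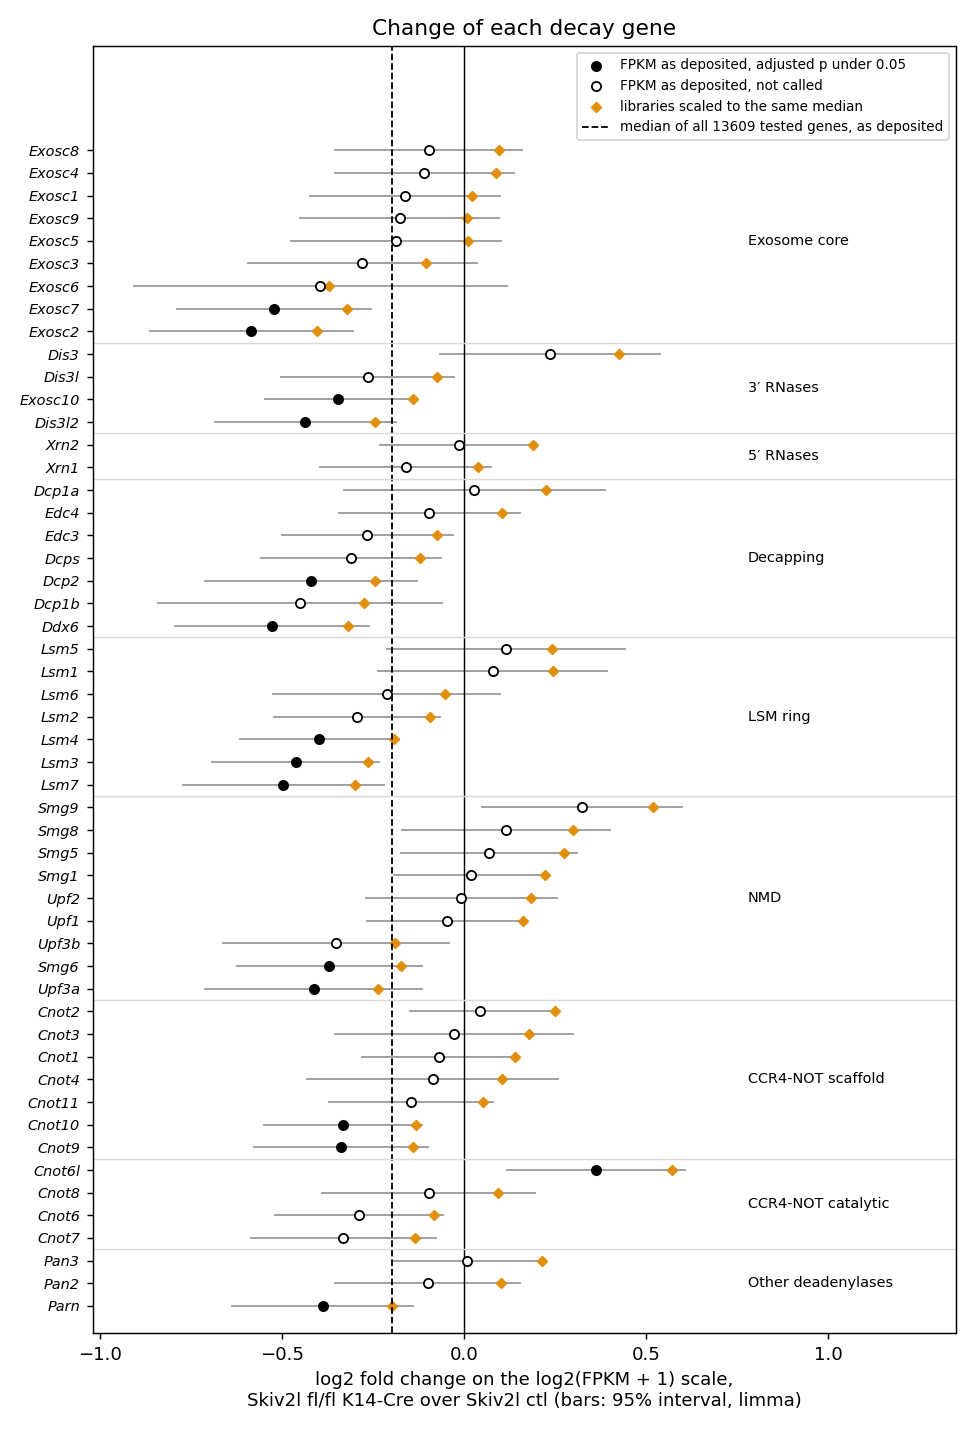
Log2 fold change of each decay gene on the log2(FPKM + 1) scale, with its 95% interval from limma, grouped by role. Filled circles are genes with an adjusted p under 0.05, open circles the rest, orange diamonds the value after scaling libraries to the same median, and the dashed line the median of all tested genes (-0.20) on the deposited scale. Most circles lie near the dashed line, and the diamonds lie about evenly on both sides of 0.

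The exosome core is a ring of 6 subunits (Exosc4 to Exosc9) capped by 3 RNA-binding subunits (Exosc1 to Exosc3), and it is catalytically inactive by itself. Of these 9 genes 2 were called lower and 0 higher, with 0 higher and 2 lower also at an unadjusted p under 0.05, and the median log2 fold change was -0.19 (0.0096 after median scaling). Control means, leaving out Exosc6, ran from 5.36 FPKM for Exosc3 to 19.3 FPKM for Exosc7. Exosc2, a cap subunit (chromosome 2, 31670715 to 31681349), was at 7.14 and 7.59 FPKM in control libraries and at 4.91 and 4.26 in knockout libraries. Both knockout libraries were below both controls, and its log2 fold change of -0.58 (SE 0.11, limma adjusted p = 0.013) was the largest fall among the 52. Exosc2 was also called lower after median scaling (log2 fold change -0.40, limma adjusted p = 0.042). An antisense gene, Gm13427, overlaps its exons with a mean of 0.053 FPKM.

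Exosc7, a ring subunit (chromosome 9, 123113215 to 123136129), was at 18.4 and 20.2 FPKM in controls and at 14.1 and 12.1 FPKM in knockout libraries. The groups did not overlap, and the log2 fold change was -0.52 (SE 0.11, limma adjusted p = 0.016), or -0.32 after median scaling (limma adjusted p = 0.065). Exosc8, the ring subunit with the smallest difference, was at 10.8 and 10.1 FPKM against 9.13 and 10.3, with overlapping groups. Exosc6 was recorded at 0.589 and 0.108 FPKM in controls and at 0.017 and 0.0020 FPKM in knockout libraries. It passed the filter through Skiv2l ctl replicate 1 alone, and 100% of the 75-base stretches of its transcript also occur in Aars, which overlaps it on the same strand, so this value says little about Exosc6. Without it, 30 of the other 51 members were below both controls and the median log2 fold change was still -0.18.

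The ribonucleases that act with the ring or beside it did not move as one. Exosc10, the mainly nuclear exosome ribonuclease, was at 25.5 and 25.4 FPKM in controls and at 20.1 and 19.6 in knockout libraries, or -0.35 on the log2 scale (SE 0.083, limma adjusted p = 0.023). Dis3l2, which degrades uridylated RNA without the exosome, was at 10.3 and 11.4 FPKM against 7.89 and 7.60 (log2 fold change -0.44, limma adjusted p = 0.022). Both fell on the deposited scale, and neither passed the test after median scaling (limma adjusted p = 0.25 and 0.12).

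Dis3 and Dis3l encode alternative catalytic subunits of the exosome, the first mainly nuclear and the second cytoplasmic. Dis3 was at 6.54 and 7.84 FPKM in controls and at 8.13 and 9.12 in knockout libraries (log2 fold change 0.24, 95% interval -0.066 to 0.54, limma adjusted p = 0.18). Dis3l was at 9.08 and 9.38 FPKM against 7.71 and 7.34 (log2 fold change -0.26, 95% interval -0.50 to -0.026, limma adjusted p = 0.081). Neither gene passed the test, but their order in level was reversed: Dis3l was the higher of the pair in both controls, and Dis3 in both knockout libraries. Exons of Dis3 overlap those of Pibf1 on the opposite strand (mean 2.69 FPKM), and whether counting used strand is not stated.

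The 5′ exonucleases showed no called change, and none had an unadjusted p under 0.05 in limma. Xrn1, which degrades decapped mRNA in the cytoplasm, was at 12.5 and 13.5 FPKM in controls and at 11.2 and 11.8 in knockout libraries (log2 fold change -0.16, 95% interval -0.39 to 0.075). Xrn2, its nuclear counterpart, was at 21.3 and 23.2 FPKM against 21.9 and 22.1 (log2 fold change -0.014, 95% interval -0.23 to 0.20). Xrn1 lay below both controls and Xrn2 between them.

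Among the 7 decapping genes 2 were called lower and 0 higher, with 5 lower and 0 higher at an unadjusted p under 0.05, and the median log2 fold change was -0.31 (-0.12 after median scaling). Ddx6, the RNA helicase that represses translation and activates decapping (chromosome 9, 44604892 to 44640731), was at 41.5 and 47.8 FPKM in controls and at 28.7 and 32.6 in knockout libraries. The groups did not overlap, and the log2 fold change was -0.53 (SE 0.11, limma adjusted p = 0.015), or -0.32 after median scaling (limma adjusted p = 0.082). Dcp2, the decapping enzyme, was at 5.83 and 5.67 FPKM against 3.71 and 4.41 (log2 fold change -0.42, SE 0.12, limma adjusted p = 0.040). Both Dcp2 values were below both controls, and after median scaling the limma adjusted p was 0.20.

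The DCP1 cofactors of DCP2 varied between libraries of a group. Dcp1a was at 12.6 and 11.3 FPKM in controls and at 10.5 and 14.03 in knockout libraries, so the latter lay on either side of the controls. Dcp1b was at 4.89 and 6.70 FPKM against 4.22 and 3.65 (log2 fold change -0.45, SE 0.16, limma adjusted p = 0.073). The enhancers of decapping Edc3 and Edc4 had log2 fold changes of -0.27 and -0.096, and Dcps, which breaks down the cap left by 3′ decay, of -0.31, with limma adjusted p of 0.077, 0.48 and 0.059.

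The LSM ring, in which Lsm1 to Lsm7 bind the shortened 3′ end and promote decapping, had 3 of 7 genes called lower and 0 higher (4 lower and 0 higher at an unadjusted p under 0.05). Lsm2 to Lsm7 are shared with the nuclear ring that binds U6 RNA, and Lsm1 belongs to the cytoplasmic ring alone. Lsm4 was at 29.2 and 32.1 FPKM in controls and at 22.7 and 23.3 in knockout libraries (log2 fold change -0.40, SE 0.090, limma adjusted p = 0.019). Lsm7 was at 16.8 and 14.7 FPKM against 11.6 and 10.2 (log2 fold change -0.50, limma adjusted p = 0.020), and 11.9% of its 75-base stretches also occur in other genes. Lsm3 was at 15.8 and 14.8 FPKM against 11.2 and 10.6 (log2 fold change -0.46, limma adjusted p = 0.014). The 3 genes lay below both controls in both libraries, and after median scaling none of them passed the test (limma adjusted p of 0.16, 0.10 and 0.090).

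Members of the ring differed in level as well. Lsm1, Lsm5 and Lsm6 had control means of 3.42, 1.36 and 3.52 FPKM, and Lsm2, Lsm3, Lsm4 and Lsm7 of 16.4, 15.3, 30.6 and 15.7 FPKM. Lsm5 was at 1.31 and 1.41 FPKM in controls and at 1.68 and 1.43 in knockout libraries (log2 fold change 0.12, limma adjusted p = 0.52), and 15.5% of its 75-base stretches occur elsewhere. Lsm1 was at 3.52 and 3.32 FPKM against 4.04 and 3.32, with a log2 fold change of 0.079 (95% interval -0.24 to 0.39). The genes called lower in the ring were among its 4 abundant members, but the log2(FPKM + 1) scale understates changes of low genes. Lsm6 also lay below both controls without being called (log2 fold change -0.21, limma adjusted p = 0.23).

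The NMD genes had the median closest to 0 of all role groups on the deposited scale, at -0.0076 (0.18 after median scaling), with 2 of 9 called lower and 0 higher, and with 3 lower and 1 higher at an unadjusted p under 0.05. Upf1 was at 52.5 and 49.5 FPKM in controls and at 46.9 and 51.8 in knockout libraries (log2 fold change -0.048, 95% interval -0.27 to 0.17), and its groups overlapped. Smg1, the kinase that phosphorylates UPF1, had a log2 fold change of 0.019 (95% interval -0.19 to 0.23), and Upf2, which bridges UPF1 and UPF3, of -0.0076 (95% interval -0.27 to 0.25). Smg5, an adaptor for phosphorylated UPF1, and Smg8, a subunit of the kinase complex, had log2 fold changes of 0.069 and 0.11.

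Smg6, the endonuclease of NMD, was at 13.1 and 14.96 FPKM in controls and at 10.9 and 10.3 in knockout libraries (log2 fold change -0.37, SE 0.10, limma adjusted p = 0.039). Upf3a was at 5.95 and 5.56 FPKM against 4.44 and 3.73 (log2 fold change -0.41, SE 0.12, limma adjusted p = 0.045), and its X-linked paralog Upf3b at 3.85 and 3.39 FPKM against 2.81 and 2.44 (log2 fold change -0.35, SE 0.13, limma adjusted p = 0.078). Both paralogs were below both controls. Smg9, a partner of the SMG1 kinase (chromosome 7, 24399619 to 24422778), went the other way, at 8.69 and 9.45 FPKM against 12.5 and 10.7. Its log2 fold change of 0.32 (SE 0.11) missed the threshold on the deposited scale (limma adjusted p = 0.069) and passed it after median scaling (0.52, limma adjusted p = 0.017).

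The CCR4-NOT scaffold and regulatory subunits had 2 of 7 genes called lower and 0 higher (2 lower and 0 higher also at an unadjusted p under 0.05), with a median of -0.086 (0.11 after median scaling). Cnot1, on which the complex is assembled, was at 48.6 and 44.6 FPKM in controls and at 43.4 and 45.3 in knockout libraries (95% interval of the log2 fold change -0.28 to 0.14). Cnot2 was at 32.8 and 32.7 FPKM against 33.6 and 34.0 (95% interval -0.15 to 0.24). Cnot9, which contacts adaptor proteins such as the GW182 family, was at 14.2 and 15.7 FPKM against 11.9 and 11.3 (log2 fold change -0.34, SE 0.098, limma adjusted p = 0.042). Cnot10, which forms a module with Cnot11, was at 18.2 and 19.1 FPKM against 14.9 and 14.3 (log2 fold change -0.33, limma adjusted p = 0.033), while Cnot11 had a log2 fold change of -0.15 (limma adjusted p = 0.26). The 2 called genes lay below both controls and the groups of Cnot1 overlapped.

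The catalytic subunits gave the only called rise on the deposited scale. CCR4-NOT carries 2 deadenylases, one of them CNOT6 or CNOT6L and the other CNOT7 or CNOT8. Cnot6l (chromosome 5, 96070333 to 96164171) was at 33.4 and 36.4 FPKM in controls and at 48.2 and 42.2 in knockout libraries. The groups did not overlap, and the log2 fold change was 0.36 (SE 0.10, limma adjusted p = 0.037), or 0.57 after median scaling (limma adjusted p = 0.0074). Without Skiv2l fl/fl K14-Cre replicate 1, the higher one, the log2 fold change was 0.27 (limma adjusted p = 0.092), and without either control library it was 0.30 and 0.42 (limma adjusted p = 0.20 and 0.12). Its paralog Cnot6 (chromosome 11, 49671503 to 49712723) was at 30.1 and 32.3 FPKM in controls and at 26.7 and 24.1 in knockout libraries, below both controls (log2 fold change -0.29, 95% interval -0.52 to -0.059, limma adjusted p = 0.059).

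Cnot7 was at 14.2 and 13.9 FPKM in controls and at 10.2 and 11.8 in knockout libraries (log2 fold change -0.33, SE 0.10, limma adjusted p = 0.052). Cnot8 was at 8.97 and 9.15 FPKM against 7.59 and 9.29, with overlapping groups (log2 fold change -0.097, limma adjusted p = 0.55). Cnot7 lay below both controls without passing the test.

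A ratio of paralogs within a library does not change when the library is multiplied by 1 factor, as in median scaling. Cnot6l over Cnot6 was 1.11 and 1.12 in Skiv2l ctl and 1.81 and 1.75 in knockout libraries. Cnot7 over Cnot8 was 1.59 and 1.52 against 1.346 and 1.265, Dis3 over Dis3l was 0.720 and 0.836 against 1.06 and 1.24, and Xrn2 over Xrn1 was 1.71 in both controls against 1.95 and 1.87. In these 4 pairs the groups did not overlap. With 2 libraries a group an exact two-sided permutation test gives p = 0.333 for each, the smallest it can give. Groups without overlap were common among single genes, with 55.3% of all tested genes below both controls and 18.2% above both. Ratios of other gene pairs were not computed. Dcp1a over Dcp1b (2.57 and 1.68 against 2.49 and 3.85) and Upf3a over Upf3b (1.55 and 1.64 against 1.58 and 1.53) overlapped between groups. Only the Dis3 pair crossed a ratio of 1, with the limit that exons of Dis3 overlap those of Pibf1.

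**Figure D4:**
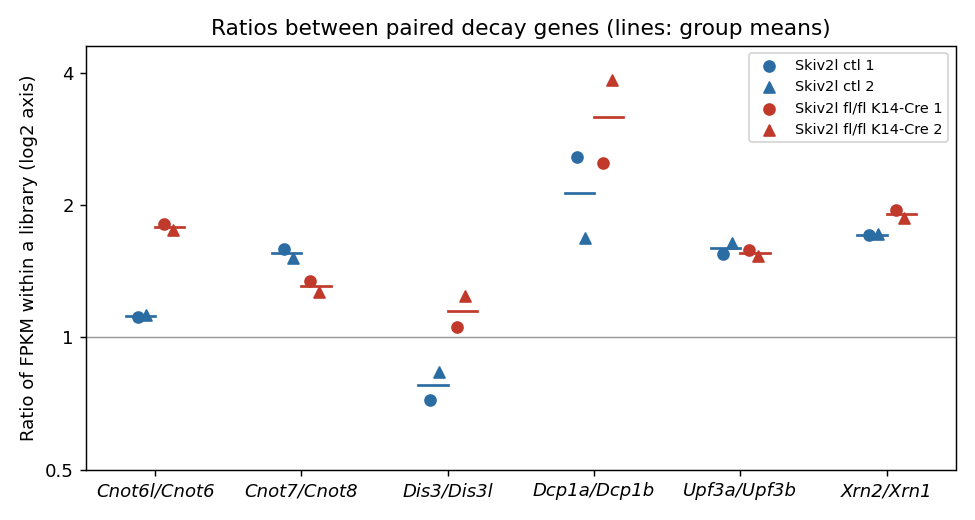
Ratio of FPKM between 2 related decay genes within each library (log2 axis), Skiv2l ctl in blue and Skiv2l fl/fl K14-Cre in red, replicate 1 as circles and replicate 2 as triangles, with group means as lines. Cnot6l over Cnot6 goes from a mean of 1.12 to 1.78 and Dis3 over Dis3l from 0.778 to 1.15, while the points of Dcp1a over Dcp1b and of Upf3a over Upf3b overlap.

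Of the other deadenylases, Parn, a poly(A)-specific ribonuclease, was at 10.2 and 10.5 FPKM in controls and at 7.29 and 8.06 in knockout libraries (log2 fold change -0.39, SE 0.10, limma adjusted p = 0.031). Pan3, the adaptor that brings PAN2 to poly(A)-binding protein, was at 31.1 and 31.0 FPKM against 30.2 and 32.2 (95% interval of the log2 fold change -0.20 to 0.21). Pan2, the catalytic subunit, had a log2 fold change of -0.10 (95% interval -0.35 to 0.15). Parn was below both controls and the groups of Pan2 and Pan3 overlapped.

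The promoter sequences of 44 members, 300 bases each around the RefSeq start (GRCm38.p6), were searched on both strands for 8 motifs. Median GC content was 62.3% in these members and 60.7% in the 10534 promoters matched to tested genes, and 42 of the 44 held at least 10 CpG dinucleotides, as did 79.5% of the tested genes' promoters. The NRF1 motif (GCGCA, any 1 base, then GCGC) was present in 12 members (27.3%, against 10.03% of tested genes' promoters and 4.78% of all 27025), the ETS motif CCGGAAG in 12 (27.3%, against 17.5% and 9.12%) and the YY1 motif AAGATGGC in 5 (11.4%, against 4.49% and 2.88%). The SP motif GGGCGG was present in 33 (75%, against 63.3% and 35.9%), CCAAT in 16 (36.4%, against 38.7% and 37.9%), the E-box CACGTG in 3 (6.82%, against 9.996% and 7.24%), the AP-1 motif TGANTCA in 1 (2.27%, against 5.22% and 7.93%) and the CRE TGACGTCA in 0 (against 3.18% and 1.88%). A match is a description of letters and not of binding.

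Promoters are shown for Cnot6l, the member called higher, and its paralog Cnot6, which lay below its controls, for Exosc2, with the largest fall, and for Smg9, the other gene called higher after median scaling. They lie at chr5:96161941-96162240 (minus strand; this start is inside the annotated Cnot6l gene), chr11:49712673-49712972 (minus), chr2:31670465-31670764 (plus) and chr7:24399378-24399677 (plus). Capitals mark matches to the 8 motifs on either strand, and adjoining or overlapping matches merge into 1 run.
Cnot6l: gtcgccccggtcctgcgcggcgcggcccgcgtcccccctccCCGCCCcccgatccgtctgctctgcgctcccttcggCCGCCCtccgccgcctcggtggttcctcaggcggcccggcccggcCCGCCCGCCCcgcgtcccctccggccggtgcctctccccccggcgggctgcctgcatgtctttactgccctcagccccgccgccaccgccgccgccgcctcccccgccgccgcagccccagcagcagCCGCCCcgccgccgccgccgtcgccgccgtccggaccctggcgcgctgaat
Cnot6: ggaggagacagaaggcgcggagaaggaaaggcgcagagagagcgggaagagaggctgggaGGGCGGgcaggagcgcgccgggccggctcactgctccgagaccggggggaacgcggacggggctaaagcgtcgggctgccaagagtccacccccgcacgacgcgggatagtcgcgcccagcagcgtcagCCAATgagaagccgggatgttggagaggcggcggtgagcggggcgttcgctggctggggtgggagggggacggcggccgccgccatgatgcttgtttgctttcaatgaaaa
Exosc2: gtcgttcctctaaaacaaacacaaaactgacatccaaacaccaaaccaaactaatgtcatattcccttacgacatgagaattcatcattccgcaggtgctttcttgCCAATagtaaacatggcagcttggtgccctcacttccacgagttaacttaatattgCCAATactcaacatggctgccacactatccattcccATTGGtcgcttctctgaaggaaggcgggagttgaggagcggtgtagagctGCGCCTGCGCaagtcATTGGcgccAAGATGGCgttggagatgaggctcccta
Smg9: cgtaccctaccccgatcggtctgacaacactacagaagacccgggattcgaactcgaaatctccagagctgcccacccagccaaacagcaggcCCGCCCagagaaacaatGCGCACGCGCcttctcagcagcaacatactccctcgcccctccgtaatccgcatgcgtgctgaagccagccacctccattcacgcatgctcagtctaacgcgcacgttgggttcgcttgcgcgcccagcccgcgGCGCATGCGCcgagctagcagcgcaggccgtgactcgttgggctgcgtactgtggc

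The Cnot6l window, with 82.7% GC and 49 CpG dinucleotides, matched the SP motif alone (5 matches), and the Cnot6 window, with 68.7% GC and 33 CpG, matched the SP motif and CCAAT once each. Exosc2, at 48.0% GC with 11 CpG, held 4 CCAAT matches, 1 NRF1 match and 1 YY1 match, and Smg9, at 63.0% GC with 30 CpG, held 2 NRF1 matches and 1 SP match. The 5 genes with a YY1 match were Cnot3, Dcp1b, Exosc2, Lsm7 and Upf3b. Of these, Exosc2 and Lsm7 were called lower on the deposited scale, as were 26.9% of the members and 25.4% of all tested genes. Whether calls differ by motif was not tested.

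Genes that work with this machinery were listed from known roles, 75 in all, and 74 passed the filter (Zfp36l3 did not). Limma called 7 of them higher and 11 lower on the deposited scale and 13 higher and 3 lower after median scaling. Over all tested genes the shares turned alike, from 8.99% higher and 25.4% lower to 13.9% and 11.9%. Their median log2 fold change was -0.10 (0.098 after median scaling). The single values spread wider than those of the 52 core genes, from -0.92 for Skiv2l to 1.05 for Noct.

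By role, the SKI complex and ribosome rescue genes had 2 higher and 1 lower of 6, partners of NMD and the exon junction complex 1 higher and 3 lower of 12, and decapping and P-body partners 2 higher and 4 lower of 12. Partners of deadenylation had 0 higher and 1 lower of 12 (2 higher and 4 lower at an unadjusted p under 0.05 in limma), and sequence-specific adaptors that bring mRNAs to the machinery had 2 higher and 2 lower of 21. The 11 cofactors of the nuclear exosome had 0 called in either direction, with 0 higher and 2 lower at an unadjusted p under 0.05. After median scaling the counts higher and lower were 3 and 1, 1 and 0, 2 and 0, 3 and 0, 4 and 2, and 0 and 0, in the same order.

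**Figure D5:**
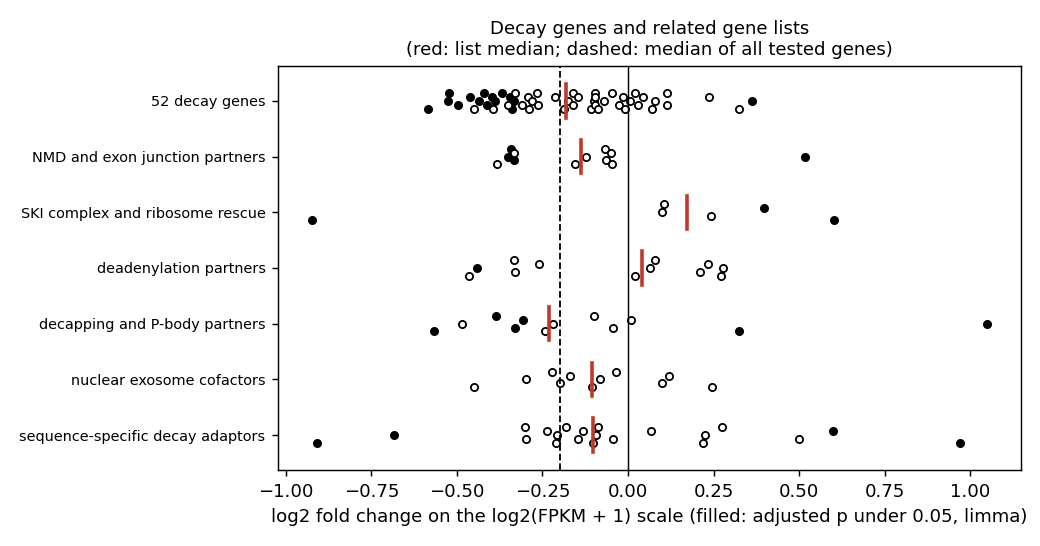
Log2 fold change on the log2(FPKM + 1) scale of the 52 decay genes and of 6 lists of related genes, each point a gene, filled where the adjusted p was under 0.05, with list medians in red, the dashed line at the median of all tested genes and the solid line at 0. The decay genes lie between -0.58 and 0.36, and the related lists hold single genes further out, from -0.92 for Skiv2l to 1.05 for Noct.

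The largest rises among these partners were in Noct, Zc3h12a, Hbs1l and Samd4. Noct, a relative of the CCR4 deadenylases that acts on NADPH, was at 15.7 and 13.4 FPKM in controls and at 35.3 and 27.2 in knockout libraries (log2 fold change 1.05, SE 0.15, limma adjusted p = 0.0041). Zc3h12a, the endonuclease Regnase-1 that cleaves inflammatory mRNAs, was at 10.7 and 10.4 FPKM against 20.1 and 23.4 (log2 fold change 0.97, SE 0.11, limma adjusted p = 0.0018). Both were above both controls and were called higher after median scaling too. Hbs1l, a ribosome rescue factor, was at 24.1 FPKM in both controls against 36.7 and 37.4 (log2 fold change 0.60, limma adjusted p = 0.0035), and Samd4, a Smaug-type repressor, at 1.70 and 1.46 FPKM against 3.20 and 2.64 (log2 fold change 0.60, limma adjusted p = 0.021). Noct and Hbs1l share 26.8% and 26.6% of their 75-base stretches with other genes.

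After Skiv2l itself the largest falls were in Ago1, Ago4 and Tut4. Ago1, an Argonaute protein that carries miRNAs, was at 21.1 FPKM in both controls and at 10.8 FPKM in both knockout libraries (log2 fold change -0.91, SE 0.086, limma adjusted p = 0.0012). Ago4, which lies next to Ago1 on chromosome 4, was at 5.36 and 5.80 FPKM against 2.73 and 3.50 (log2 fold change -0.68, limma adjusted p = 0.013). Ago1 and Ago4 were below both controls and were called lower after median scaling too (limma adjusted p = 0.0027 and 0.042). Ago3, on the other side of Ago1, was at 2.92 and 2.70 FPKM against 2.91 and 3.07 (log2 fold change 0.067, limma adjusted p = 0.68). Ago2, on chromosome 15, lay above both controls (log2 fold change 0.22, limma adjusted p = 0.10, and 0.020 after median scaling). Tut4, a terminal uridylyltransferase whose products Dis3l2 degrades, was at 8.42 and 9.43 FPKM against 5.02 and 6.42 (log2 fold change -0.57, limma adjusted p = 0.024, and 0.098 after median scaling), while its paralog Tut7 was at 30.1 and 29.9 FPKM against 37.8 in both (log2 fold change 0.32, limma adjusted p = 0.025).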

How the data were processed

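Total RNA from P0 mouse epidermis (RNA integrity number above a stated cutoff) was sequenced, and the authors deposited 1 table per library of the 4 pups. The deposited FPKM values are fragments scaled by the length of the transcript and the size of the library, the deposited TPM values are scaled to a fixed sum, and the deposited coverage signal is mean read depth per base. The build is GRCm38 per the submitters' processing notes. An Astrocyte workflow is named. The aligner and the use of strand are not given in the sources used here, and no batch or date is labelled.

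FPKM and TPM were summed per gene identifier, and 54029 of 54752 identifiers had the coordinates of GENCODE M21. Of 21921 protein-coding genes, the 13609 that exceeded an FPKM of 0.5 in 1 or more libraries entered the test, on log2(FPKM + 1), a scale that understates changes of low genes, with limma 3.58.1 (lmFit, eBayes with a trend, two-sided) in R 4.3.3 and Benjamini-Hochberg adjustment over all tested genes at 0.05. The scripts were tested on simulated data. Pups are separate animals, numbered 1 and 2 in each group by the labels. Deviations from the group means correlated at -0.077 between same-numbered libraries, so the numbers were not taken as pairs. Values in all 4 libraries are given for called members with a change of at least 0.5, for the most abundant member, largest rise and largest fall of each role group, for paralog pairs, and for the 4 largest called rises and falls among partners. The values of Lsm3, Dcp2, Lsm1, Smg6, Cnot10 and Tut7 were added after they were seen. Members and lists were chosen with earlier results of these data known. Alternatives were another pseudocount, 2 filters, TPM, 2 scalings, a replicate block, no trend, all genes and leaving out each library. Sequences shared with other genes were counted on GENCODE M21 transcripts, and promoters are from RefSeq, GRCm38.p6, 1 start per gene. The promoter motifs are common promoter elements, counted with no test. Depth was not given as counts, so no counting interval is given, and 2 pups per group limit the precision of every value.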

Additional observations from a re-analysis of the deposited data

How the results depend on the processing

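Of the 15 members called, 15 were called in the same direction with a pseudocount of 0.1 and 15 with the stricter filter (FPKM above 1 in at least 2 samples), 14 with TPM, 13 with the replicate number as a block, 11 without a trend, 11 with non-coding genes included, 9 without a filter, 5 with quantile normalization and 2 with median scaling, and leaving out a library kept 0 to 10. Members called higher and lower were 0 and 9 without a filter, 0 and 18 with TPM, 2 and 1 with median scaling, 2 and 4 with quantile normalization and 0 and 11 without a trend (limma, with 2 higher at an unadjusted p under 0.05 without a filter, 1 with TPM and 2 without a trend). Their median log2 fold change was -0.24 with TPM, 0.010 with median scaling and -0.00065 with quantile normalization. Members below both controls numbered 20 with median scaling, and members above both numbered 3 with TPM, 16 with median scaling and 12 with quantile normalization. Partners called lower numbered 6 without a filter, 3 with median scaling, 2 with quantile normalization and 5 without a trend, and partners called higher numbered 13 with median scaling. Leaving out 1 library gave 0 to 2 members higher, 0 to 11 lower, a median of -0.22 to -0.19, 7 to 12 members above both controls, 34 to 40 below both, 2 to 9 partners higher and 1 to 10 lower. The lone library left in a group is there assumed to vary like the other group, which loosens the estimate of spread. The share of all tested genes called was counted for the deposited scale, median scaling and quantile normalization alone. The share below or above both controls was counted for the deposited scale alone. Counts in the other settings thus have no background beside them.

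With the replicate number as a block, limma called 1 member higher and 12 lower, a change of calls for 2 members, although the same-numbered libraries did not deviate together. Signs turned for 4 of the 52 members with TPM, 16 with median scaling, 15 with quantile normalization and 2 to 8 when a library was left out. Among the members whose 4 library values are given by rule, they turned with TPM for Cnot2 (-0.0031), Dcp1a (-0.017) and Pan3 (-0.040). With median scaling, among the same members, they turned for Cnot1 (0.14), Cnot8 (0.094), Exosc8 (0.097), Upf1 (0.16), Xrn1 (0.038) and Xrn2 (0.19), and with quantile normalization for Cnot1 (0.0013), Cnot8 (0.075), Exosc8 (0.064), Upf1 (0.0028) and Xrn2 (0.10). Leaving out 1 library gave -0.16 to 0.22 for Dcp1a, -0.072 to 0.044 for Xrn2, -0.23 to 0.033 for Cnot8, -0.12 to 0.022 for Upf1 and -0.037 to 0.052 for Pan3. Both scalings move the median of all genes by construction, and what else moves calls was not tested.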
